A study of Mus musculus with 11 samples.

Results

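The matrix-binding integrins of muscle were read as 10 genes, the alpha subunits Itga1, Itga5, Itga6, Itga7, Itga9, Itga11 and Itgav and the beta subunits Itgb1, Itgb5 and Itgb6. A probe set was taken as a member when its gene symbol in the deposited table equalled one of these names, which gave 11 of the 28350 probe sets and 10 of the 21759 gene symbols, and each gene was read at its brightest probe set over the 11 mice. The RNA came from the tibialis anterior (TA) of 3 untreated wild-type mice named C57, 4 untreated *mdx* mice and 4 *mdx* mice given Pip6e-PMO. The labels give the strain of all 11 as C57/B10, while the study's methods name C57/Bl10 for the wild type and C57/Bl10ScSn-Dmd mdx/J for the *mdx* mice. All were males of 14 weeks, and the treated mice had received a single tail vein dose of 12.5 mg/kg at 12 weeks of age. The *mdx* mouse carries a mutation of Dmd that removes full-length dystrophin, and Pip6e-PMO is a peptide-conjugated morpholino oligonucleotide that makes the splicing machinery skip the mutated exon. No group of *mdx* mice given a vehicle or a control oligonucleotide was analysed here, so the injection and the oligonucleotide cannot be told apart.

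Integrins are receptors made of an alpha and a beta chain that join the extracellular matrix to the actin cytoskeleton. Their outer parts bind laminin, collagen, fibronectin or other proteins, and the short tail of the beta chain binds talin and kindlin, which recruit the adhesion complex inside the cell. In muscle fibres the laminin receptor of alpha7 and beta1 holds the fibre to its basement membrane at junctions and along the sarcolemma, next to the dystrophin-associated complex, which binds laminin as well. Other subunits mark other cells of the tissue, such as alpha1 and alpha6 on capillaries and alpha11 on fibroblasts. Whole muscle was measured, so fewer cells of a type and less RNA per cell cannot be told apart.

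The median signal of the arrays was alike, 27.5 to 28.6 on the linear scale, and T2, the second treated mouse, lay farthest from its own group (median absolute deviation 0.285 over the probe sets tested, against 0.115 to 0.193 in the others). The labelled tissue was borne out by its defining markers: all 10 fibre genes (among them Acta1, Ckm and Myh4) were detected, with a summed intensity of 60300 to 65650 in every mouse. Of these, Myh2, the myosin of type IIA fibres, was called higher in treated than in *mdx* mice (difference 1.45, limma adjusted p = 0.0158), and its difference in *mdx* against C57 was -1.001 (adjusted p = 0.0574). The log2 signal of Dmd itself was 5.87, 5.83 and 5.77 in the C57 mice, 5.82, 5.36, 5.33 and 4.60 in the *mdx* mice and 6.34, 5.51, 5.68 and 5.68 in the treated mice, and it was not called in *mdx* against C57 (difference -0.55, limma adjusted p = 0.198). This signal does not read exon skipping.

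The sequences before the transcription start of the called members are shown as a description, and no link to their signals was tested. The RefSeq promoter table used here (GRCm38.p6) had an entry for 8 of the 10 genes and for 5 of the 7 that were called in *mdx* against C57 or in treated against *mdx* mice. The 250 bases before the start are given 5′ to 3′ on the strand of the gene, with capitals for a GC box (GGGCGG, bound by Sp1 factors) or a TEAD motif (GGAATG) on either strand.
Itgb1 (chr8:128685404-128685653, plus strand): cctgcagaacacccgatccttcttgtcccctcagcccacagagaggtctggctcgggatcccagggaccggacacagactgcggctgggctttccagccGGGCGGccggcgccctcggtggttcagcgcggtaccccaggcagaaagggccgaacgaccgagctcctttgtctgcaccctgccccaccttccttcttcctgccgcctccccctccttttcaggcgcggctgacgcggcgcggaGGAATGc
Itgav (chr2:83724147-83724396, plus strand): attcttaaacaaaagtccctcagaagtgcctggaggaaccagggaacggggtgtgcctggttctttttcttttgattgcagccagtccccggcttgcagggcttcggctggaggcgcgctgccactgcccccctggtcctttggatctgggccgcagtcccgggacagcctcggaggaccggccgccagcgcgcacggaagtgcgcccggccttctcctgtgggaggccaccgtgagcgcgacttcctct
Itga1 (chr13:115101965-115102214, minus strand): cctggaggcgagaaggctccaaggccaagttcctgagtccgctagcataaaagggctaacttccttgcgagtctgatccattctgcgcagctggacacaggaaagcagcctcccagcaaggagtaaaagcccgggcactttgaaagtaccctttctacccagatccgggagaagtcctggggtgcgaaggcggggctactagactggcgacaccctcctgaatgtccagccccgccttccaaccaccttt
Itga5 (chr15:103366792-103367041, minus strand): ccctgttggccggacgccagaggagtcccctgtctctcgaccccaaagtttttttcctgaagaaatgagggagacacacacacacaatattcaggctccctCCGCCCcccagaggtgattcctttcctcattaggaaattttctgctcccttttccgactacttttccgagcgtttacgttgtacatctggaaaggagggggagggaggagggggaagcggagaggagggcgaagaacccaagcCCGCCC
Itga11 (chr9:62677605-62677854, plus strand): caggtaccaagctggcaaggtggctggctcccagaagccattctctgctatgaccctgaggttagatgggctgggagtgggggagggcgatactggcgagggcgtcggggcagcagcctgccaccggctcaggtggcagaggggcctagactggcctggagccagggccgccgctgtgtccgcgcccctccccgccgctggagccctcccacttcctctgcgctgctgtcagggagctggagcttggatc
A GC box lay in the Itgb1 and Itga5 windows, with 1 and 2 matches, and in none of the other 3. The TEAD motif matched only in Itgb1, 7 to 2 bases before the start. Of all 32851 promoters in the table, 32.7% hold the GC box and 12.6% the TEAD motif in the same window. Neither the AP-1 motif (TGANTCA, in 6.75% of all promoters) nor the TATA box (TATAAA, in 12.4%) was in any of these 5, and the E-box (CANNTG, in 66.2%, both strands searched) matched once each in Itga1, Itga5 and Itga11. The GC box and TEAD matches of Itgb1 do not overlap. G and C made up 68.0% of the Itgb1 window and 55.6 to 68.4% of the other 4, against a median of 52.4% over all promoters. The Itgav window held no match to any motif searched, so none could be common to the genes that rose in treated mice. Of those genes, Itga6 had no promoter entry.

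All 10 genes passed the minimum signal of 30 in at least 1 group and were tested among the 14494 probe sets that did. In *mdx* against C57 muscle, Itgb1, Itgav, Itga5, Itga7 and Itga11 rose by 1.47- to 1.69-fold. These comprise the common beta chain, the fibre's laminin receptor chain and chains that bind fibronectin and collagen. None of the 10 was called lower. Of all probe sets tested, 7.06% were called higher and 4.96% lower, at a Benjamini-Hochberg adjusted p under 0.05 in limma. The median difference over the 10 genes was 0.42 on the log2 scale, against -0.01 over all probe sets tested.

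After treatment, Itga1, Itga6, Itgav and Itgb1 rose above their *mdx* levels, by 1.41- to 2.14-fold, and none of the 10 was called lower, against 7.26% of all probe sets called higher and 3.88% called lower. The median difference of the 10 genes was 0.25, against 0.02 over all probe sets tested. Itgb1 and Itgav were called higher in both comparisons, Itga5, Itga7 and Itga11 in *mdx* against C57 alone, and Itga1 and Itga6 in treated against *mdx* mice alone. These comparisons share the *mdx* mice, so their calls are not independent, and a call in one without the other is not a test that the changes differ. Against C57, treated mice had 5 genes called higher (Itgb1, Itgav, Itga1, Itga6 and Itga11) and 0 lower, with 15.6% and 8.96% of all probe sets called.

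**Figure D1:**
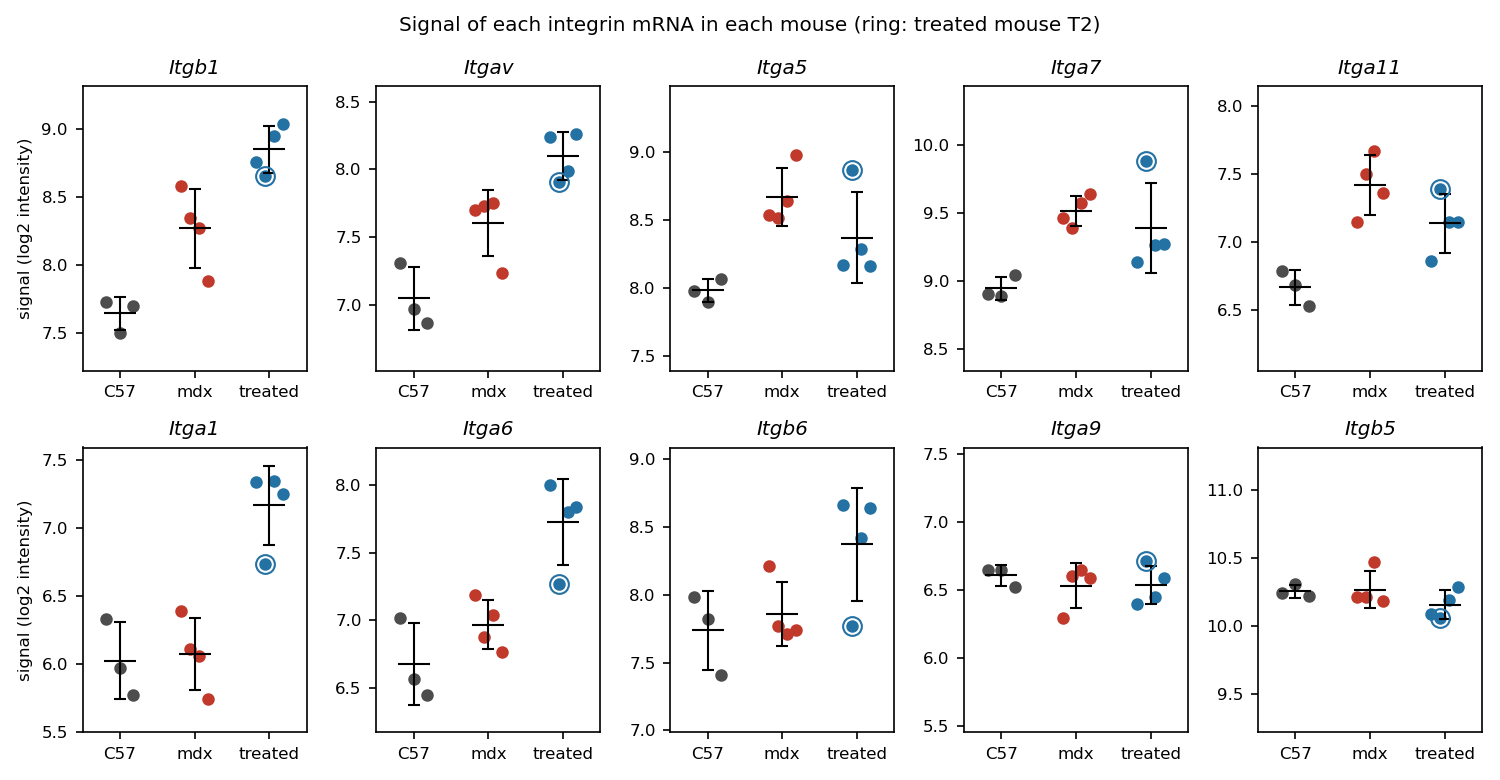
Log2 signal (vertical axis, each panel spanning the same range) of the 10 integrin mRNAs in C57, *mdx* and treated mice (horizontal axis), with 1 point per mouse, the mean and the SD, and a ring around T2. Itgb1 and Itgav step up from C57 to *mdx* to treated mice, Itga1 and Itga6 are high in the treated mice alone, and T2 lies with or above the *mdx* mice for Itga5 and Itga7.

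Itgb1 encodes the beta1 chain, the partner of most matrix-binding alpha chains. Its log2 signal (probe set 10576661) was 7.73, 7.50 and 7.70 in the C57 mice, 8.58, 8.35, 8.27 and 7.88 in the *mdx* mice, and 8.76, 8.66, 8.95 and 9.04 in the treated mice. The 3 groups did not overlap: every *mdx* mouse lay above every C57 mouse and every treated mouse above every *mdx* mouse. The difference was 0.63 (SE 0.15, limma adjusted p = 0.0197) in *mdx* against C57 and 0.58 (SE 0.14, adjusted p = 0.0284) in treated against *mdx*. Treated mice were 2.31-fold above C57 (difference 1.21, 95% interval 0.87 to 1.54, adjusted p = 3.72e-04), the largest difference from C57 among the 10 genes. The first call was lost without C57 replicates 2 or 3 or *mdx* replicate 2 (adjusted p up to 0.094), and the second without any 1 of *mdx* replicates 3 and 4 and T1, T3 and T4 (up to 0.0847). The call against C57 held without each mouse in turn.

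The table holds another probe set under the symbol Itgb1 (10582843), on the minus strand where the gene lies on the plus strand of chromosome 8. In the deposited positions, which name no build, it spans 131209275 to 131210227 and reaches past the start of the first probe set at 131209681. Its log2 signal stayed between 4.81 and 5.25 in all 11 mice, near the minimum signal, and it was called in no comparison (differences of -0.08 to 0.04, limma adjusted p of 0.671 to 0.89). Averaging the 2 probe sets therefore lowered the difference of Itgb1 to 0.33 in *mdx* against C57 and 0.25 in treated against *mdx*, and both calls were lost (adjusted p = 0.0777 and 0.129).

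Itgav encodes the alphav chain, which pairs with beta1, beta5 and beta6 and binds the RGD sequence of fibronectin, vitronectin and latent TGF-beta. The signals of Itgav (probe set 10473281) were 7.31, 6.97 and 6.87 in C57, 7.70, 7.73, 7.75 and 7.24 in *mdx* and 8.24, 7.91, 7.99 and 8.26 in treated mice. One *mdx* mouse, replicate 4, lay inside the C57 range, while the treated mice all lay above the other groups. The gene rose by 0.56 in *mdx* (1.47-fold, SE 0.15, limma adjusted p = 0.0356) and by a further 0.50 in treated mice (1.41-fold, SE 0.14, adjusted p = 0.0452). The first call was lost without any 1 of C57 replicates 2 and 3, *mdx* replicates 1, 2 and 3 and T3 (adjusted p up to 0.141), and the second without any 1 of C57 replicate 2, the 4 *mdx* mice, T1, T3 and T4 (up to 0.124). Against C57 the treated mean was higher by 1.05 (2.07-fold, 95% interval 0.71 to 1.39, adjusted p = 9.24e-04), a call that held without each mouse.

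Itga1, a collagen receptor chain that prefers the collagen of basement membranes, had the largest rise in treated against *mdx* mice. Its signals (probe set 10412298) were 6.33, 5.97 and 5.77 in C57, 6.39, 6.11, 6.06 and 5.74 in *mdx* and 7.34, 6.74, 7.35 and 7.25 in treated mice. C57 and *mdx* mice overlapped through their whole range, and every treated mouse lay above both groups, with T2 the lowest of the 4. The difference of Itga1 was 1.10 in treated against *mdx* (2.14-fold, SE 0.17, limma adjusted p = 0.00787) and 1.15 in treated against C57 (2.21-fold, adjusted p = 0.00186). In *mdx* against C57 it was 0.05, with a 95% interval of -0.36 to 0.46. Both calls held without each mouse in turn.

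Itga6 encodes a laminin receptor chain of endothelium, Schwann cells and muscle progenitors. Its signals (probe set 10472820) were 7.02, 6.57 and 6.45 in C57, 7.19, 6.88, 7.04 and 6.77 in *mdx* and 8.00, 7.27, 7.80 and 7.84 in treated mice. As for Itga1, the treated mice lay above all others, and T2 was close to the highest *mdx* mouse. Itga6 was higher by 0.76 in treated against *mdx* (1.69-fold, SE 0.17, adjusted p = 0.0224 in limma) and by 1.05 in treated against C57 (2.07-fold, adjusted p = 0.00257), and in *mdx* against C57 its difference was 0.29 (95% interval -0.11 to 0.69). The call against *mdx* was lost without *mdx* replicate 4, T1, T3 or T4 (adjusted p up to 0.0659).

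Itgb6, whose beta6 chain pairs with alphav and is best known from epithelia, had 7.98, 7.82 and 7.41 in C57, 8.21, 7.77, 7.71 and 7.74 in *mdx* and 8.66, 7.77, 8.42 and 8.64 in treated mice. T1, T3 and T4 lay above every other mouse, while T2 lay among the *mdx* mice. With T2 it was not called against *mdx* (difference 0.52, SE 0.20, limma adjusted p = 0.107) or against C57 (0.64, adjusted p = 0.0504). Without T2 the differences were 0.72 and 0.84, and both were called (limma adjusted p = 0.0091 and 0.0044). The call against C57 was also gained without C57 replicate 1 (0.0489) or *mdx* replicate 1 (0.0471).

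Itga5 encodes the alpha5 chain of the classical fibronectin receptor. The signals of Itga5 (probe set 10433114) were 7.98, 7.90 and 8.07 in C57, 8.54, 8.52, 8.64 and 8.98 in *mdx* and 8.17, 8.87, 8.29 and 8.16 in treated mice. All *mdx* mice lay above all C57 mice, and T1, T3 and T4 lay between these groups, while T2 lay within the *mdx* range. Itga5 rose by 0.69 in *mdx* (1.61-fold, SE 0.17, limma adjusted p = 0.021), a call lost without C57 replicates 1 or 2 or *mdx* replicate 4 (adjusted p up to 0.0875). From *mdx* to treated mice its difference was -0.30 (95% interval -0.64 to 0.05, adjusted p = 0.219). Without T2 it was -0.46 and was called lower (adjusted p = 0.0148).

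Itga7 encodes the alpha7 chain of the main laminin-binding integrin of the muscle fibre. Its signals (probe set 10367440) were 8.90, 8.89 and 9.04 in C57, 9.46, 9.39, 9.57 and 9.64 in *mdx* and 9.14, 9.88, 9.26 and 9.27 in treated mice. The same order of mice was seen as for Itga5, with T2 here above every *mdx* mouse and the other treated mice between C57 and *mdx*. Itga7 rose by 0.57 in *mdx* (1.49-fold, SE 0.16, adjusted p = 0.0319 in limma). This call was lost without any 1 of the 3 C57 mice or *mdx* replicates 1, 3 or 4 (adjusted p up to 0.114), although the difference stayed between 0.53 and 0.62. From *mdx* to treated mice the difference was -0.13 (95% interval -0.44 to 0.19), and without T2 it was -0.29 (adjusted p = 0.0334) and called lower. Against C57, Itga7 was not called (0.44, adjusted p = 0.0548), although every treated mouse lay above every C57 mouse. It was called without T1 (adjusted p = 0.0396) or T2 (0.044).

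Itga11, a receptor chain for fibrillar collagen that is typical of fibroblasts, had the largest rise of the 10 genes in *mdx* against C57. Its signals (probe set 10586079) were 6.79, 6.68 and 6.53 in C57, 7.15, 7.50, 7.67 and 7.36 in *mdx* and 6.86, 7.39, 7.15 and 7.15 in treated mice. Both groups of *mdx* mice lay above C57 in every mouse, and they overlapped each other. The difference of 0.75 (1.69-fold, SE 0.14, limma adjusted p = 0.00547) was called without each mouse left out in turn. From *mdx* to treated mice it was -0.28 (95% interval -0.57 to 0.01, adjusted p = 0.171), and treated mice were above C57 by 0.47 (adjusted p = 0.0345), a call lost without T2 (adjusted p = 0.0523) or any 1 of C57 replicates 2 and 3, T3 and T4 (up to 0.13).

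The remaining members gave no call in any comparison. Itga9, which binds tenascin-C, osteopontin and VCAM-1, stayed between 6.29 and 6.71 in all 11 mice, and Itgb5, the partner of alphav in the vitronectin receptor, between 10.06 and 10.47. The 95% intervals of their differences in *mdx* against C57 were -0.32 to 0.17 for Itga9 and -0.21 to 0.23 for Itgb5. From *mdx* to treated mice they were -0.22 to 0.23 and -0.31 to 0.09.

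**Figure D2:**
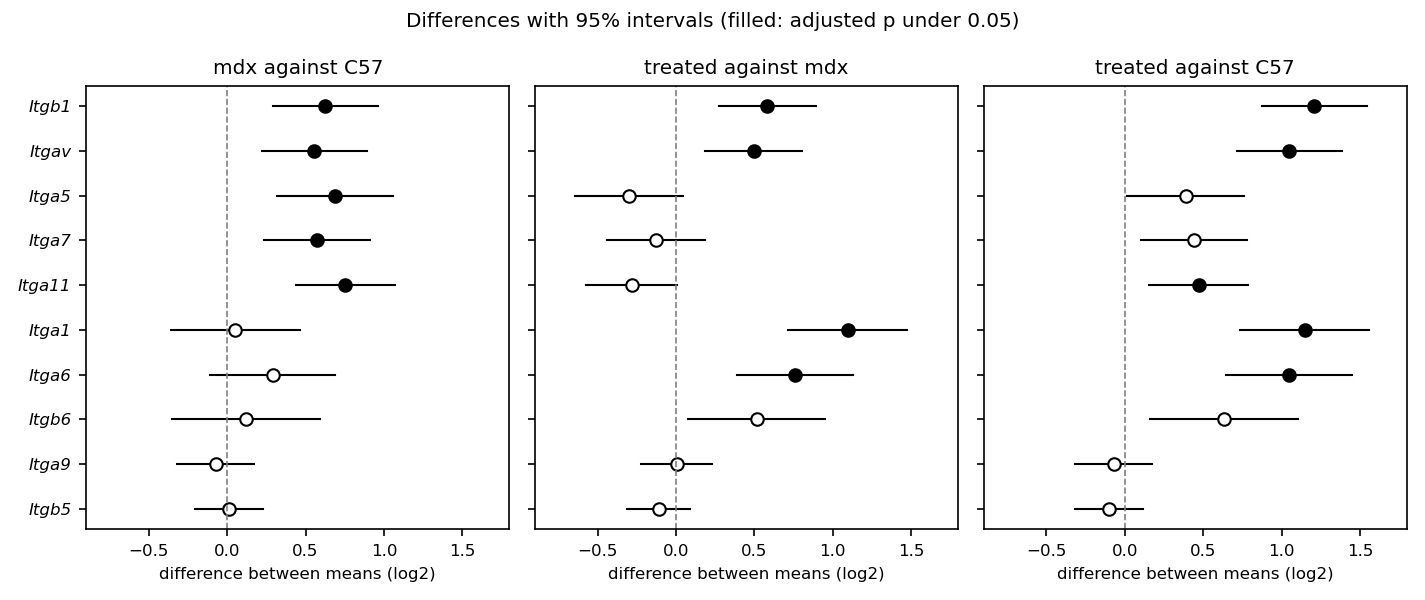
Difference between group means (log2, horizontal axis) of each integrin mRNA in the 3 comparisons, with the 95% interval from limma and a filled point for an adjusted p under 0.05. Filled points lie to the right of 0 in every panel, at 0.56 to 0.75 in *mdx* against C57 and at 0.50 to 1.10 in treated against *mdx* mice.

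Groups that did not overlap were counted as well, without a model. In *mdx* against C57, 4 of the 10 genes had every *mdx* mouse above every C57 mouse (Itgb1, Itga5, Itga7 and Itga11), and 24.3% of all probe sets tested had groups that did not overlap in either direction. Against *mdx*, 4 genes had every treated mouse higher (Itgb1, Itgav, Itga1 and Itga6), against 16.0% of all probe sets. Against C57, every treated mouse was higher for 7 of the 10, and 32.0% of all probe sets did not overlap.

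The number of members called depended on single mice. In *mdx* against C57 it fell from 5 to 3 without C57 replicate 1 or any 1 of the *mdx* mice, to 1 without C57 replicate 2 and to 2 without C57 replicate 3. Without these mice the calls over all probe sets fell as well, from 1742 to between 1006 and 1456. The count in treated against *mdx* mice fell from 4 to 1 without *mdx* replicate 4, T1, T3 or T4 and to 2 without *mdx* replicate 3, and rose to 7 without T2, with 5 genes higher and 2 lower. Over all probe sets, the 1615 calls fell to between 296 and 566 without *mdx* replicates 3 or 4, T1, T3 or T4. Without T2 they rose to 4123 of 14535, so the member counts moved with those of the whole array. The methods' t-test with Benjamini-Hochberg adjustment called 1 of the 10 in *mdx* against C57, beside 5.46% of all probe sets, and 0 in treated against *mdx*, beside 0.607%. At an unadjusted p under 0.05, 4 passed it in treated against *mdx*, beside 25.1% of all probe sets.

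The departure of T2 ran through nearly all of these genes. Measured from the mean of the *mdx* mice, Itga1 was higher by 1.26, 1.27 and 1.17 in T1, T3 and T4 and by 0.66 in T2. Itga5 was at -0.50, -0.38 and -0.51 in T1, T3 and T4 and at 0.20 in T2, and Itga7 at -0.38, -0.26 and -0.25 against 0.37. T2 was the lowest treated mouse for Itga1, Itga6, Itgb1, Itgb6, Itgav and Itgb5 and the highest for Itga5, Itga7, Itga9 and Itga11. Some gaps to the next treated mouse were small, as for Itgb5 (10.06 against 10.09) and Itgav (7.91 against 7.99).

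**Figure D3:**
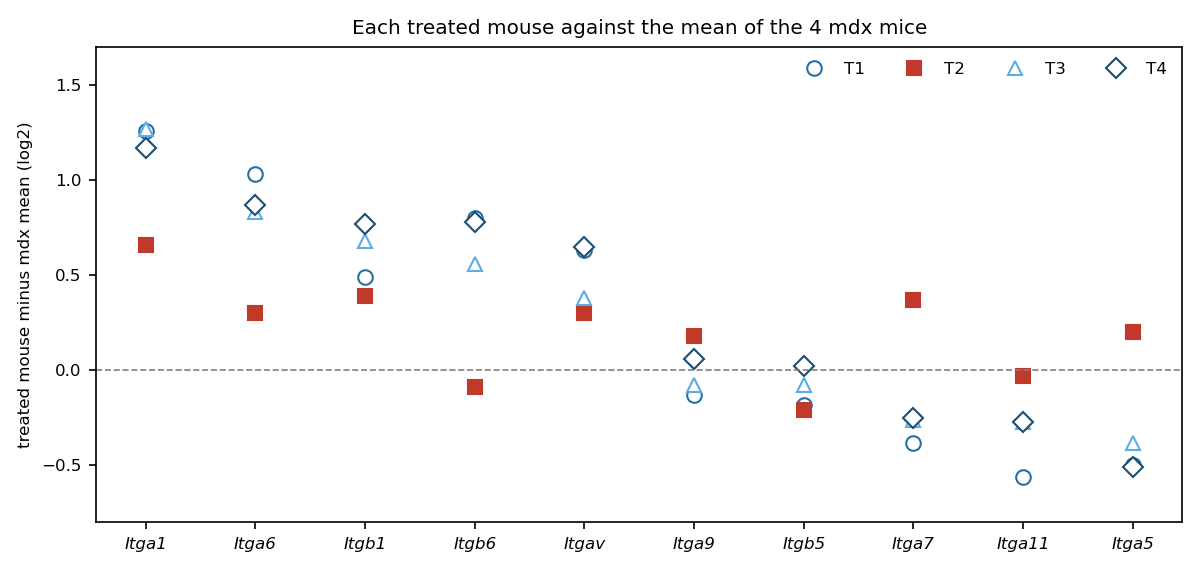
Log2 signal of each treated mouse minus the mean of the 4 *mdx* mice (vertical axis) for the 10 integrin mRNAs (horizontal axis), with T2 as a filled square. T2 lies below the other treated mice for Itga1 (0.66) and Itga6 (0.30) and above them for Itga7 (0.37) and Itga5 (0.20).

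Genes of other roles ran closely with the called members over the 11 mice. These likenesses are Pearson correlations of log2 signals that include the differences between the groups, and they are given as descriptions. The closest to Itga5 were Cotl1 (0.986), Gltp and Fermt3, the kindlin of blood cells (0.973), and the closest to Itga7 were Qsox1 (0.978), Bmp1 and Src, a kinase of the adhesion complex (0.967). Itga11 ran with Sfrp2, Ms4a7 and AF251705 (all 0.962), of which the second is known from macrophages. Itgb1 ran with Rbm18, Dync1i2 and Armcx3 (0.984 to 0.989), Itgav with Ppfibp1, Mid2 and Zeb2 (0.981 to 0.988), Itga1 with Tbce, Nudt12 and Rhot1 (0.977 to 0.983) and Itga6 with Arhgef3, Wnk1 and C030046E11Rik (0.979 to 0.982). No gene appeared under more than 1 member.

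Markers of other cells were called in the same comparisons. Beside them, 7.06% of all probe sets were called higher and 4.96% lower in *mdx* against C57. In treated against *mdx* these shares were 7.26% and 3.88%. Of 7 macrophage markers, 6 were called higher in *mdx* than in C57 (Cd68, Adgre1, Csf1r, Lyz2, Cd14 and Itgam). Itgam, also an integrin chain, had a C57 mean under a signal of 30, so its call is no support for a rise. The list's summed intensity ran from 914.1 to 1340 in C57, with *mdx* mice at 2448 to 3918 and treated mice at 2023 to 2581. Of 6 fibroblast markers, which include Col1a1, Lum and Dpt were called higher in *mdx*, with sums of 3776 to 5160 in C57, where *mdx* mice had 5272 to 6668 and treated mice 5391 to 7651. Of 7 markers of progenitors and regenerating fibres, 4 were called higher in *mdx* (Myog, Ncam1, Myh8 and Myh3). Myh3 had a C57 mean under a signal of 30, so its call is no support for a rise. The sums of this list were 831.5 to 1047 for C57, 1195 to 1677 for *mdx* and 866.1 to 1374 for treated mice. In treated against *mdx* mice, 1 macrophage marker was called higher and 1 lower, and 0 of the fibroblast and progenitor lists were called. No marker of these 3 lists was under 30 on every array. The part of these cells in the rise of Itga5, Itga7, Itga11, Itgav and Itgb1 was not tested.

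Of 6 endothelial markers, 2 were called in the comparison in which Itga1 and Itga6 rose. None of the 6 was called in *mdx* against C57, while Pecam1 (difference 0.78, limma adjusted p = 0.0277) and Tek (0.97, adjusted p = 0.0332) were called higher in treated than in *mdx* mice. The summed intensity of the endothelial markers was 1767 to 2195 for C57, 2013 to 2570 for *mdx* and 2380 to 3292 for treated mice, with T2 the lowest of the treated mice. Rgs5, a pericyte gene, was called higher as well (1.02, adjusted p = 0.0146), the only 1 of its 6 smooth muscle and pericyte markers. The other 4 endothelial markers, Cdh5, Kdr, Tie1 and Emcn, had differences of 0.01 to 0.51 and were not called. The part of capillary cells in the rise of Itga1 and Itga6 was not tested. Of 5 adipocyte markers, Adipoq, Plin1 and Cfd were called lower in treated than in *mdx* mice. Fabp4 went the other way, with means of 9.57 in *mdx* and 9.83 in treated mice, and was not called. Lep did not pass the minimum signal. The summed intensity of these markers was 1058 to 1724 for *mdx* and 1107 to 1135 for treated mice.

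The other 17 integrin subunits set these genes beside their family. Of these, 13 passed the minimum signal. In *mdx* against C57 4 were called higher and 1 lower, beside 7.06% and 4.96% of all probe sets. The 4 were the leukocyte chains Itgam (1.32, limma adjusted p = 0.00124), Itgb2 (1.56), Itgal (0.66) and Itgax (2.02, adjusted p = 0.00262), and the gene called lower was Itgb4 (-0.50, adjusted p = 0.0411), a laminin receptor chain of epithelia and Schwann cells. The call of Itgb4 was lost without any 1 of C57 replicates 1 and 3, *mdx* replicates 1, 2 and 4, T3 and T4. Itgal, Itgam and Itgax had C57 means under a signal of 30 and passed this minimum only through the *mdx* and treated mice. Their calls are therefore no support for a rise, and the size of these differences is poorly known. Itga4, which binds fibronectin and VCAM-1, was not called (-0.49, adjusted p = 0.0841).

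Among the same 13, Itga8 alone was called in treated against *mdx* mice, beside 7.26% of all probe sets called higher and 3.88% lower. Itga8, which pairs with beta1 and binds nephronectin, had signals of 4.30, 4.11 and 4.32 in C57, 4.44, 4.43, 4.58 and 4.16 in *mdx* and 5.19, 4.74, 5.38 and 5.47 in treated mice. The treated mice lay above all others, T2 the lowest of them. The difference was 0.79 (limma adjusted p = 0.0141), but both the C57 and the *mdx* mean were under a signal of 30. Itga8 was thus tested only because its signal was high enough in the treated mice. Its call is therefore no support for a rise, and the size of the difference is poorly known. Itgb2 (-0.59, adjusted p = 0.0873) and Itgal (-0.21, adjusted p = 0.186) were not called. Without T2 or *mdx* replicate 1, 2 of the 13 were called, 1 higher and 1 lower. Over all probe sets, the 1615 calls became 4123 without T2 and 1250 without *mdx* replicate 1.

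The mRNAs of the matrix proteins that these receptors bind were read in 3 classes. Of 10 laminin and basement membrane genes, 8 were called higher and 0 lower in *mdx* against C57, with a median difference of 0.66. The shares of all probe sets were 7.06% and 4.96%. Npnt, the nephronectin gene, rose most (1.37, limma adjusted p = 4e-04), followed by the collagen IV chains Col4a1 (1.04) and Col4a2 (0.96), Lamb1 (0.77), Lama2 (0.69), Nid1 (0.63, adjusted p = 9.71e-04), Lama4 (0.51) and Lamc1 (0.48). Without C57 replicate 3, 5 of the 10 were called, and calls over all probe sets went from 1742 to 1134. None of the 10 was called in treated against *mdx* mice by limma, where 3 had an unadjusted p under 0.05 in limma and 3 in the methods' t-test, and the lowest adjusted p were those of Lama5 (0.41, 0.0522), Nid1 (0.24, 0.0799) and Lamb1 (0.32, 0.104). Lama5 had the opposite direction in *mdx* against C57 (-0.37, limma adjusted p = 0.105, not called). Its means were 7.90 in C57, 7.53 in *mdx* and 7.94 in treated mice. Compared with C57, treated mice had 8 of the 10 called higher, beside 15.6% of all probe sets.

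Fibrillar collagens were called higher for 2 of 5 genes in *mdx* against C57, beside 7.06% of all probe sets. They were Col3a1 (1.38, limma adjusted p = 0.00233) and Col5a2 (1.24, adjusted p = 0.00125). Col5a1, Col1a2 and Col1a1 had differences of 0.50, 0.32 and 0.20 and were not called. Between treated and *mdx* mice the 5 differences lay between -0.12 and 0.0025, with 0 called by limma and 0 at an unadjusted p under 0.05 in limma or the methods' t-test.

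Of 14 ligands of alphav, alpha5 and alpha9, 6 were called higher and 0 lower in *mdx* against C57, where all probe sets gave 7.06% and 4.96%. The 6 are named next. They were Postn (2.16, limma adjusted p = 0.0166), the osteopontin gene Spp1 (1.29), the fibronectin gene Fn1 (0.96, adjusted p = 0.00138), Tgfb1 (0.88), Fbn1 (0.74) and Vcam1 (0.60). Vcam1 had a C57 mean under a signal of 30, so its call is no support for a rise. Spp1 was the 1 ligand called lower in treated than in *mdx* mice, beside 3.88% of all probe sets. Its signals were 4.61, 4.80 and 5.26 in C57, 6.12, 5.89, 6.47 and 6.24 in *mdx* and 4.79, 5.59, 4.61 and 5.86 in treated mice, a difference of -0.97 (adjusted p = 0.0363). The treated mice all lay below the *mdx* mice and overlapped C57. This call was lost without C57 replicate 2, *mdx* replicates 1, 3 or 4, T1 or T3, and 3 ligands were called lower without T2. Without T2, 4123 of all probe sets were called in treated against *mdx* mice, and 1615 with it. Fn1 (-0.33, adjusted p = 0.118) and Tgfb1 (-0.42, adjusted p = 0.077) were not called.

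Inside the cell, the genes of the adhesion complex were read as well. Of 26 genes, 25 were tested and 3 were called higher in *mdx* against C57 and 0 lower, beside the 7.06% and 4.96% of all probe sets. They were Nmrk2, a muscle kinase that binds the beta1 tail (0.65, limma adjusted p = 0.00836), Fermt3 (0.75, adjusted p = 0.0209) and Vcl, the vinculin gene (0.54, adjusted p = 0.0372). Lims2 (-0.40), Parva (0.42) and Src (0.46) were not called, with adjusted p of 0.0508 to 0.0697. Without C57 replicate 2, 1 of the 25 was called, and without T2, 6 were, 5 higher and 1 lower. Over all probe sets, the 1742 calls became 1006 without C57 replicate 2 and 2215 without T2.

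Of the same 25 genes, Lims1 and Ptk2 were called higher in treated than in *mdx* mice and 0 were called lower. Of all probe sets tested, 7.26% were called higher and 3.88% lower. Lims1, the PINCH adaptor that holds integrin-linked kinase, had signals of 6.59, 6.53 and 6.73 in C57, 7.42, 7.35, 6.94 and 6.63 in *mdx* and 7.93, 7.87, 8.00 and 7.97 in treated mice. All treated mice lay above all *mdx* mice, as for Itgb1, and Lims1 was higher by 0.86 than in *mdx* (adjusted p = 0.0102 in limma) and by 1.33 than in C57 (adjusted p = 3.23e-04). Ptk2, the focal adhesion kinase gene, was higher by 0.45 (adjusted p = 0.0438). Cd151, a tetraspanin that binds laminin-binding integrins, was at -0.37 (adjusted p = 0.0509). Leaving out T2 raised the calls from 2 to 8, 3 higher and 5 lower, and leaving out any other mouse left 1. Over all probe sets, the calls rose as well without T2, from 1615 of 14494 to 4123 of 14535.

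**Figure D4:**
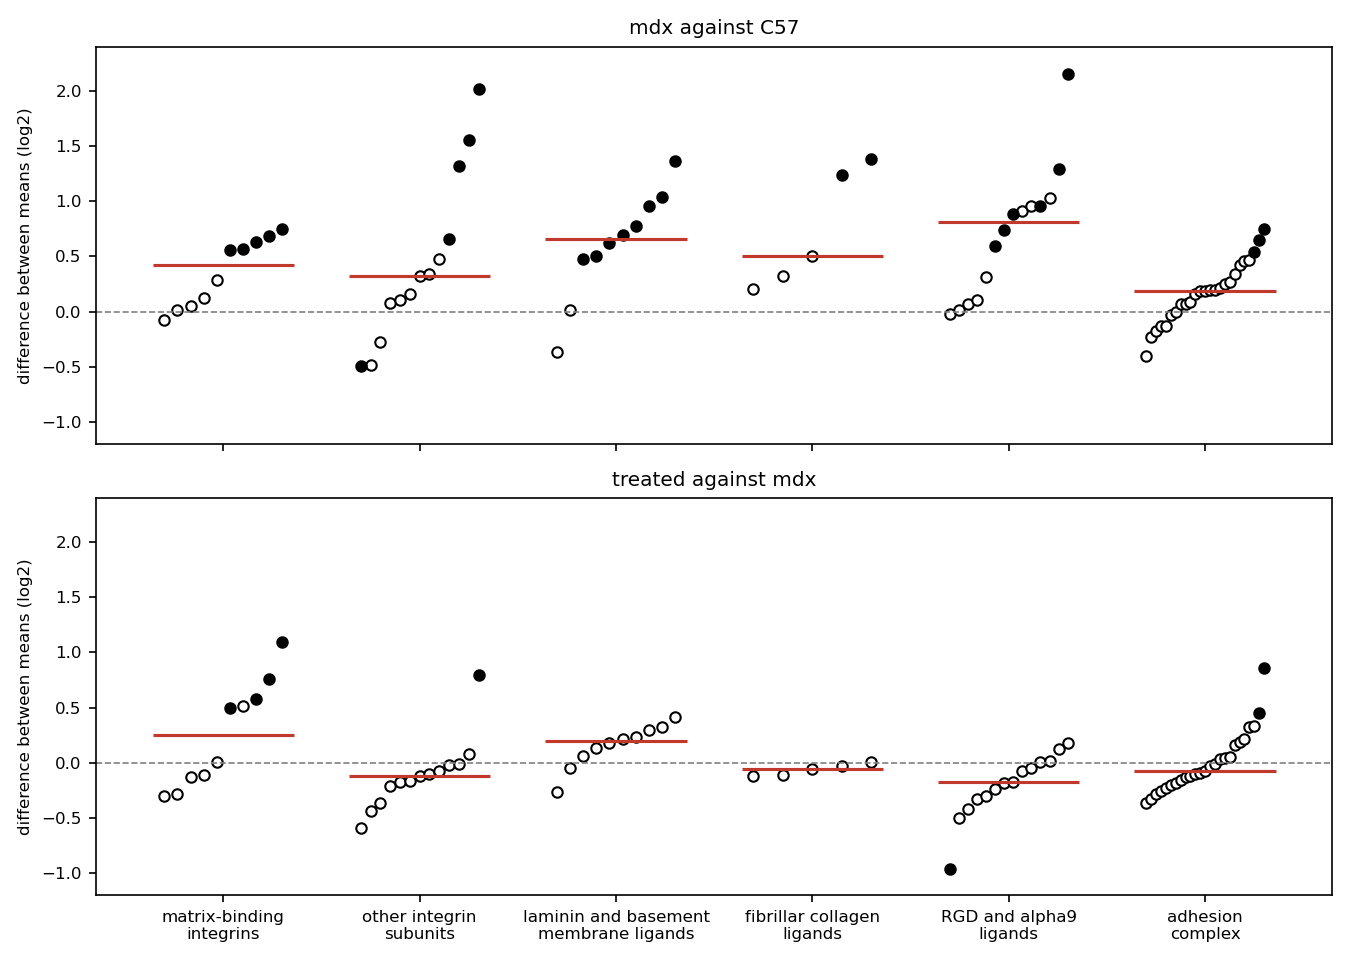
Difference between group means (log2, vertical axis) of every tested gene of the integrin members, the other integrin subunits, their ligands and the adhesion complex (horizontal axis), in *mdx* against C57 (top) and treated against *mdx* mice (bottom). Filled points have an adjusted p under 0.05 and red lines are medians, which for the ligand classes are 0.50 to 0.81 at the top and -0.18 to 0.20 at the bottom, beside 0.42 and 0.25 for the members.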

How the data were processed

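Total RNA (100 ng) from each of 11 mice was hybridized to its own Mouse Gene ST 1.1 array. Per the labels and the study's methods, the authors made the deposited intensity values in Affymetrix Expression Console with the RMA-Sketch routine, which corrects background, quantile-normalizes the arrays and summarizes probes by median polish. They are on the linear scale, replicates were not pooled, and software versions were not given in the sources used here. The stated removal of probe sets below 30 in all groups was not applied in the table and was done here on group means, which left 14494 of 28350 probe sets (51.1%). The probes of all 11 member probe sets are annotated as unique, and 2 of the 11 deposited positions overlap the place of the gene in GRCm38.p6.

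The log2 intensities of all 11 mice were fitted with limma 3.58.1 in R 4.3.3, with a mean per group, and two-sided moderated tests were adjusted by Benjamini-Hochberg over all 14494 probe sets. A gene was called at an adjusted p under 0.05. Tables and plots were made with Python 3.11.15, pandas 2.3.3, NumPy 2.4.6 and matplotlib 3.10.9, and the fit was tested on simulated data. The array number limits the precision. Replicates are separate mice.

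The members and gene lists were chosen with earlier results of these data known. Named genes are the 10 members, up to 6 genes per list with the lowest adjusted p in *mdx* against C57 and up to 3 in treated against *mdx*, and the 3 genes most like each called member. Nmrk2 and Adgre1 were found through their Entrez identifiers under older symbols. Alternatives were the methods' t-test, other call rules, fits with array weights, with a robust trended prior, with a replicate block or on each pair of groups alone, other minimum signals, arrays centred or quantile-normalized again, averaging over probe sets of a gene, and leaving out each mouse. Promoters came from RefSeq.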

Additional observations from a re-analysis of the deposited data

Results flagged for a closer look

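Of the 20 sets of 4 mice formed by the 10 genes in *mdx* and in treated mice, 5 held a mouse whose gap to the next was large for the range of its group, where chance gives about 1 in 20. Itga1 had T2 at 6.74 among treated mice, against 7.25 to 7.35 in the others. Among *mdx* mice, Itga9 had replicate 1 at 6.29 against 6.59 to 6.65, Itgav had replicate 4 at 7.24 against 7.70 to 7.75, Itgb5 had replicate 3 at 10.47 against 10.18 to 10.21, and Itgb6 had replicate 1 at 8.21 against 7.71 to 7.77.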

How the results depend on the processing

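The count of members called in *mdx* against C57 was 5, and it was 1 with the methods' t-test after adjustment, 3 at an unadjusted p under 0.01 with 1.5-fold, 2 with a replicate block, and 1 to 5 with each mouse left out. In treated against *mdx* mice it was 4, and 0 with the adjusted t-test, 2 at the unadjusted p with 1.5-fold, 2 in a fit of these groups alone, 7 with array weights, 2 with a replicate block, and 1 to 7 with each mouse left out. In treated against C57 it was 5, and 3 with the adjusted t-test, 8 with array weights, 4 with a replicate block, and 4 to 6 with each mouse left out. Under repeated quantile normalization it was again 5, of which 4 were the same genes. Same-numbered mice did not deviate together (correlations of -0.297 to 0.153), so the replicate number was not taken to pair them. Of 687 comparisons of a member with an alternative, 588 kept direction and side of the threshold, 69 lost and 18 gained a call, and 12 changed sign, all at genes not called in that comparison. The sign changed for Itgb5 in *mdx* against C57 with centred arrays (-0.031) and for Itga9 in treated against *mdx* with array weights (-0.055) and repeated quantile normalization (-0.08). With each mouse left out, the differences in *mdx* against C57 ran from -0.075 to 0.21 for Itga1, -0.12 to 0.0067 for Itga9, -0.057 to 0.04 for Itgb5 and -0.043 to 0.24 for Itgb6, and in treated against *mdx* from -0.076 to 0.051 for Itga9. Over all probe sets, the calls in treated against *mdx* were 1615, and 4123 without T2, 296 without T4 and 88 with the adjusted t-test. They were 724 at the unadjusted p with 1.5-fold and 736 in the fit of these groups alone. With array weights they were 4614, and with a replicate block 498. The calls in *mdx* against C57 were 1742, and 791 with the adjusted t-test, 1094 at the unadjusted p with 1.5-fold and 1145 with a replicate block. Those in treated against C57 were 3564, and 1274 with the adjusted t-test, 6547 with array weights and 2332 with a replicate block. The cause of these changes was not tested.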
